A study of Salix matsudana with 3 samples.

Results

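miR397 and miR408 are conserved plant microRNAs whose known targets are copper-binding proteins. miR397 is known to guide cleavage of laccase transcripts, which encode secreted copper oxidases that couple lignin monomers in cell walls and root barriers. miR408 is known from Arabidopsis for targets among plantacyanins, which are small blue copper proteins, and among other laccases. In Arabidopsis both are switched on by the factor SPL7 when copper is scarce, together with miR398, so that copper is spared for plastocyanin in photosynthesis. miR857 is a further laccase regulator of Arabidopsis.

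The members described here are all small RNA entries and degradome sites that are numbered as miR397, miR408 or miR857. They came to 7 of 205 listed small RNA entries, 1 of miR397 and 6 of miR408, and to 27 of 981 listed degradome sites, 15 of miR397 and 12 of miR408. No entry or site was listed for miR857. The tissue was root and stem of the willow Salix matsudana, taken from plants 30 days old. For 1 small RNA library the plants had stood in NaCl solution (100 mmol per litre) for 2 days, and for the other they were the untreated control. A degradome library, in which the 5′ ends of cleaved messenger RNA are read, pooled RNA of both samples. Roots and stems were not separated, and no messenger RNA levels were used here that could check the organs by their markers. The number of plants per library was not stated.

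The listed entries held 734026 reads in the salt library and 4622984 reads in the untreated library, so the untreated library was 6.30-fold deeper. Levels are given as reads per 1000000 listed reads (RPM), in which 1 read was worth 1.36 RPM in the salt library and 0.216 RPM in the untreated library. Each condition had 1 library, so no difference has a replicate check and no test between conditions was made. Intervals are 95% exact intervals and cover counting error only. They treat reads as independent, which PCR copies are not, so they may be too narrow even for that. A level in such bulk tissue cannot tell fewer cells that make a miRNA from less of it per cell. The salt itself and the time that passed under it also cannot be told apart.

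The mature sequences of the members are shown first, because the results turn on which forms of miR408 were seen. Capitals mark the seed, which is bases 2 to 8 from the 5′ end. Suffixes of the names follow a convention that the headers do not spell out, in which L and R give bases gained or lost at the left and right end relative to the database entry and ss gives substitutions.
nta-miR397_L+2: tCATTGAGtgcagcgttgatgt
ptc-miR408-3p_L-1R+1: tGCACTGCctcttccctggct
mes-miR408_L-1R+2 and aly-miR408-3p_L-1R+2: tGCACTGCctcttccctggctc
mdm-miR408a_L-1R+3: tGCACTGCctcttccctggcttt
hbr-miR408a_R-1_1ss17AG: aAGACTGGgaacaggcggagc
ptc-MIR408-p5_2ss12AC22GA: tGGATGGAgctcctaacagaaa

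The 4 entries ptc-miR408-3p, mes-miR408, aly-miR408-3p and mdm-miR408a shared the seed GCACTGC, and no other listed entry carried it. They are 3 distinct sequences of 21, 22 and 23 bases with a common start. The 22-base form, listed under the names mes-miR408 and aly-miR408-3p, adds C to the 21-base form, and the 23-base form mdm-miR408a adds TT. The seed CATTGAG of nta-miR397 was carried by no other listed entry. The seeds of hbr-miR408a and ptc-MIR408-p5 also occurred in 1 entry each, so these entries do not share the seed of the miR408 forms that are known to act on copper protein genes.

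A precursor was listed for 2 of the 7 members, both from the same hairpin. It lay at positions 130 to 232 of the assembled transcript contig c6106_f1p0_1330_1_2kb, which has no place on a genome in the files. The hairpin is shown because entries under several names fall on it, and capitals mark its 2 arms, the stretch matched by hbr-miR408a and the 3p stretch of ptc-miR408-3p.
miR408 hairpin: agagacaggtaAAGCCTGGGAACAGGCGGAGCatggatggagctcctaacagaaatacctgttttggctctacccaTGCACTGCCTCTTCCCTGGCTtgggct

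Folded with RNAfold, the 103-base hairpin had a minimum free energy of -54.1 kcal per mol. The stretch of ptc-miR408-3p, bases 77 to 97, had 18 of its 21 bases paired, with partners between bases 13 and 33. The entry hbr-miR408a, named after miR408a of the rubber tree, matched bases 12 to 32 of the opposite arm with 1 substitution, A4C. Substitutions are written as the base of the entry, its position from the 5′ end of the entry, and the base of the hairpin. The predicted entry PC-5p-83176_32, which is no member by its name, matched bases 13 to 33 of the same arm with 1 substitution, C21A. By sequence both entries resemble the 5p arm of this hairpin and are called 5p forms here. Whether they come from this locus or from another was not tested. The entry ptc-MIR408-p5 lay at bases 34 to 55, between this arm and the loop, and not opposite ptc-miR408-3p. The extra base of the 22-base form did not match the hairpin (C22T), and neither did the last base of the 23-base form (T23G). Whether such bases come from another locus or were added after processing was not tested.

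**Figure D1:**
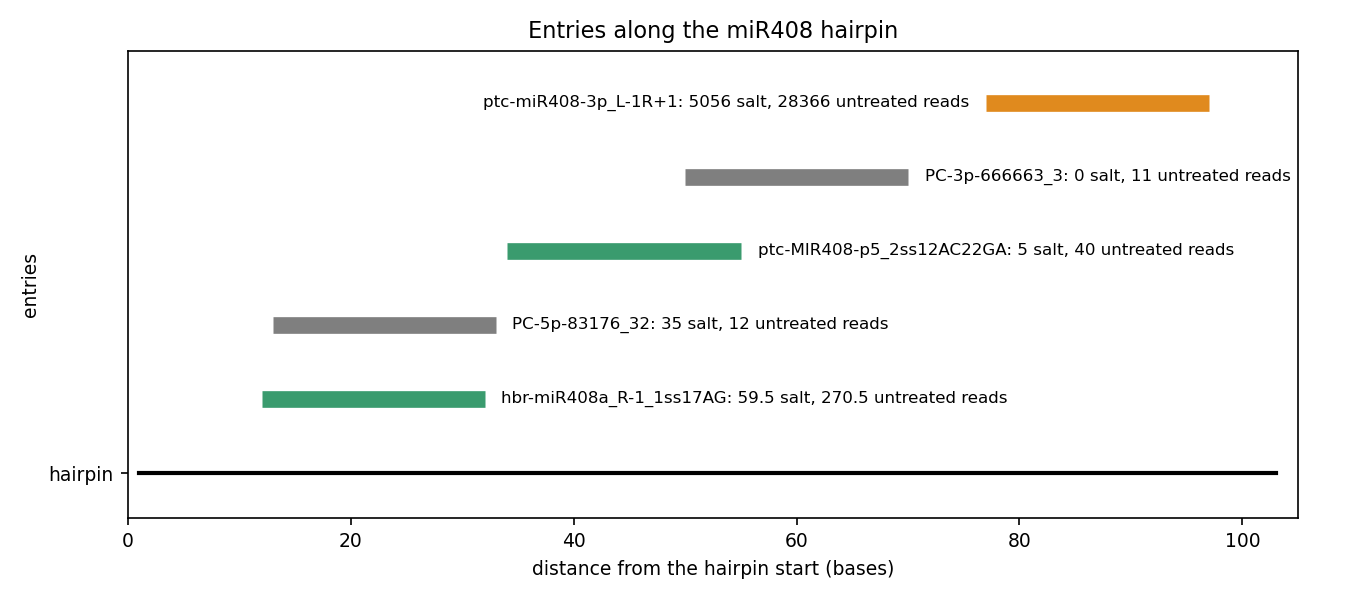
Entries along the miR408 hairpin. The horizontal axis gives the distance from the hairpin start in bases, each bar is the stretch an entry matches, and the text gives its reads in the salt and the untreated library. The 3p form with 5056 salt and 28366 untreated reads lies opposite hbr-miR408a and PC-5p-83176_32, which overlap each other almost wholly.

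miR397 was much lower in the salt library. nta-miR397 had 585 reads in the salt library and 13927 reads in the untreated library. That is 797 RPM (733.7 to 864) in the salt library and 3013 RPM (2963 to 3063) in the untreated library, a share 3.78-fold lower (3.48 to 4.11). It ranked 41st of 205 entries in the salt library and 21st in the untreated library. On the log2 scale of level + 1 its ratio was -1.92. The intervals of the 2 libraries do not meet.

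The main form of miR408 differed far less. ptc-miR408-3p had 5056 reads in the salt library and 28366 reads in the untreated library, or 6888 RPM (6700.1 to 7080) with salt and 6136 RPM (6065 to 6207) untreated. Its share was 1.12-fold higher (1.09 to 1.16) in the salt library, where it ranked 16th, against 13th in the untreated library. The log2 ratio of 0.17 turned negative under 4 of 6 other scalings, given with the scalings further on. With identical sequences counted once it was only -0.0057.

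miR397 and miR408 can be set against each other within each library, where no scaling enters. There were 11.6 reads of nta-miR397 per 100 reads of ptc-miR408-3p in the salt library, against 49.1 in the untreated library, so this ratio was 4.24-fold lower (3.88 to 4.64) in the salt library. Per 100 reads of ptc-miR398b, the most abundant entry of the third copper family, there were 6.56 reads of nta-miR397 in the salt library and 24.96 in the untreated library, a ratio 3.81-fold lower (3.49 to 4.15). ptc-miR408-3p came to 56.7 reads per 100 of ptc-miR398b in the salt library and 50.8 in the untreated library, 1.12-fold higher (1.07 to 1.16). The copper miRNAs thus did not keep 1 proportion in both libraries, with miR397 apart from miR408 and miR398.

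**Figure D2:**
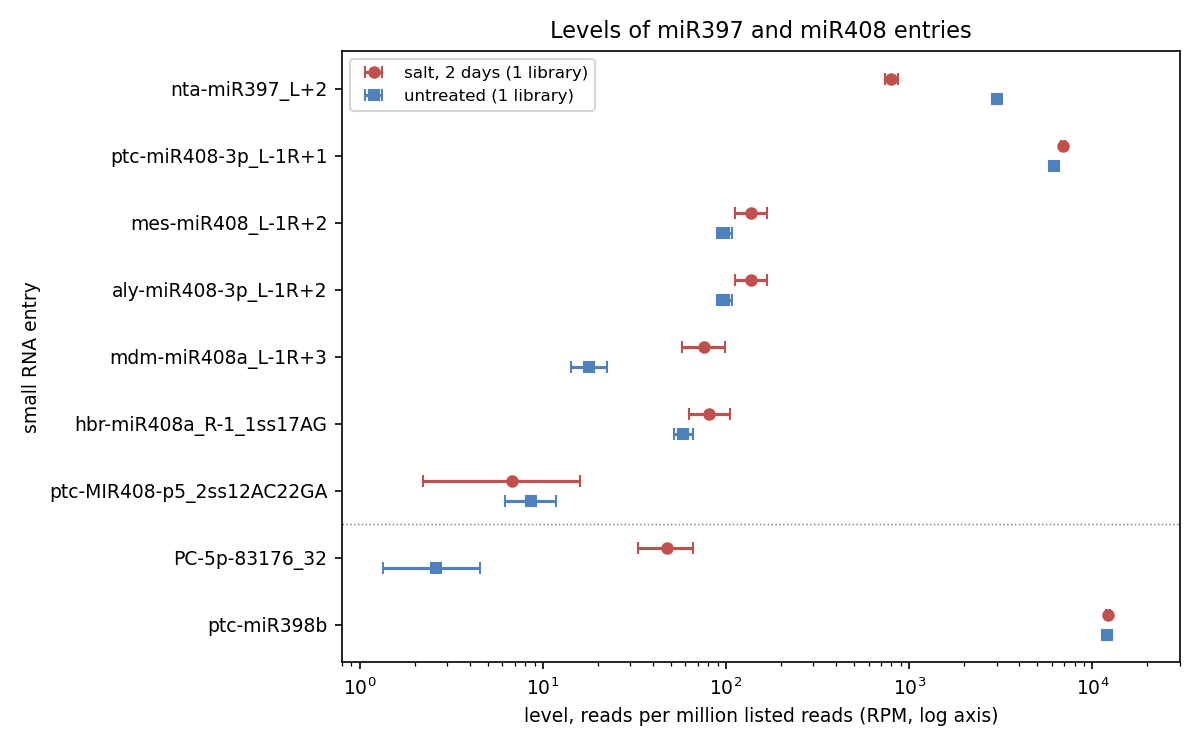
Levels of the members, of PC-5p-83176_32 and of ptc-miR398b. The horizontal axis gives RPM on a log scale, circles stand for the salt library and squares for the untreated library (1 each), and bars are 95% exact intervals for counting error. nta-miR397 stands at 797 RPM in the salt library and 3013 RPM in the untreated library, while ptc-miR408-3p and ptc-miR398b differ little.

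The minor miR408 forms were rare and differed by their 3′ end. The 22-base form had 100.7 estimated reads in the salt library and 452.3 in the untreated library under each of its 2 names, or 137 RPM (112 to 167) with salt and 97.8 RPM (89.0 to 107) untreated. These counts hold parts of reads, so at least some reads were divided, but the table does not say over which entries. If reads were divided between the 2 names, the full level of the form is higher than that under each name. The 23-base form mdm-miR408a had 55.7 estimated reads in the salt library and 82.8 in the untreated library, or 75.8 RPM (57.6 to 99.1) with salt and 17.9 RPM (14.3 to 22.3) untreated. Its share was 4.23-fold higher (2.97 to 6.04) in the salt library, with a log2 ratio of 2.02. The share of the 22-base form was 1.40-fold higher (1.12 to 1.75) in the salt library. Its intervals in the 2 libraries do not meet either, but those of the 23-base form lie further apart.

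With the 22-base form counted once, the 21-base form made up 97.0% of the 3p reads in the salt library and 98.1% in the untreated library. The 22-base form took 1.93% in the salt library and 1.57% in the untreated library, and the 23-base form took 1.07% in the salt library and 0.287% in the untreated library. If reads of the 22-base form were divided between its names, counting it once leaves some of them out. Its share would then be larger in both libraries and those of the other forms smaller. Relative to the 21-base form, the 23-base form was 3.77-fold higher (2.64 to 5.38) in the salt library. Counts of the 23-base form hold parts of reads, so some reads may be divided with other entries. The interval treats the rounded counts as whole reads. Against the 21-base form, the 22-base form, counted under a single name, was 1.25-fold higher (0.998 to 1.56). This interval only just includes no difference, and it would be narrower if the reads of both names were added. Over the whole table, 7 pairs of distinct sequences differed by bases added at the 3′ end with at least 10 reads of each in both libraries. The pair of mdm-miR408a and ptc-miR408-3p had the largest of these 7 ratios. The next was a miR398 pair that differed by T, nta-miR398_R+2 over ptc-miR398b_R+1, at 2.45-fold higher (1.85 to 3.29), and its interval overlaps that of the miR408 pair. The other pair that differed by TT, nta-miR398_R+2 and ptc-miR398b, was 1.48-fold higher (1.20 to 1.84) in the salt library.

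On the other arm, hbr-miR408a had 59.5 estimated reads in the salt library and 270.5 in the untreated library, or 81.1 RPM (62.4 to 105) with salt and 58.5 RPM (51.6 to 65.8) untreated. Its share was 1.39-fold higher (1.04 to 1.86). Relative to ptc-miR408-3p it was 1.23-fold higher (0.925 to 1.66), which includes no difference. PC-5p-83176_32, shifted by 1 base along the same arm, had 35 reads in the salt library and 12 in the untreated library. Per read of ptc-miR408-3p it was 16.4-fold higher (8.29 to 34.6) in the salt library. Both 5p forms together came to 1.87 reads per 100 of ptc-miR408-3p in the salt library and 0.996 in the untreated library, 1.88-fold higher (1.46 to 2.37). Most 5p reads were those of hbr-miR408a in both libraries, and most of the difference lay in PC-5p-83176_32.

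ptc-MIR408-p5 had 5 reads in the salt library and 40 in the untreated library, or 6.81 RPM (2.21 to 15.9) with salt and 8.65 RPM (6.18 to 11.8) untreated, and stayed under the level minimum of 10 RPM. Its share was 1.27-fold lower with an interval from 0.501 to 4.12, so no difference was detectable at this depth. PC-3p-666663_3, at bases 50 to 70 of the hairpin, had 0 reads in the salt library and 11 in the untreated library. The exact interval of its salt level reaches 5.03 RPM, which is above its untreated level of 2.38 RPM.

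An entry was called at 2-fold on level + 1, if its level averaged 10 RPM or more over both libraries. Of the 7 members 6 reached the minimum, 1 was higher (mdm-miR408a), 1 was lower (nta-miR397) and 4 lay within 2-fold. Over all 115 entries at the minimum, 32.2% were called higher and 13.0% were called lower. The median log2 ratio was 0.47 over the 6 members and 0.33 over all 115 entries, and the members ranged from -1.92 to 2.02. Of the 5 miR398 entries at the minimum none was called, with a median of 0.23 and a range from -0.71 to 0.57. Summed over entries, miR408 stood at 7326 RPM in the salt library and 6417 RPM in the untreated library, 1.14-fold higher (1.11 to 1.18), and nearly all of it was ptc-miR408-3p. miR398 summed to 12906 RPM in the salt library and 12811 RPM in the untreated library, 1.01-fold higher (0.986 to 1.03). In the copper group of miR397, miR398 and miR408 together, 1 of 11 entries at the minimum was higher and 1 was lower.

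The scaling moves the ratios of all entries the same way, and less for entries of low level because of the added 1. Relative to all listed reads, the median over the 115 tested entries moved by -0.98 log2 when the 5 most abundant entries were left out of the total. It moved by -0.38 without miR159, by -0.36 with the median ratio of entries, by -0.17 with identical sequences counted once and by 0.22 without possible rRNA or tRNA fragments. Where reads were divided over identical sequences, counting these once leaves reads out of the total. The log2 ratio of nta-miR397 ranged from -2.89 to -1.70 over these scalings and was more than 2-fold lower under each. That of ptc-miR408-3p ran from -0.81 to 0.39. mdm-miR408a stayed more than 2-fold higher, from 1.10 to 2.24. The 22-base form and hbr-miR408a turned negative without the 5 most abundant entries, at -0.49 and -0.50.

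**Figure D3:**
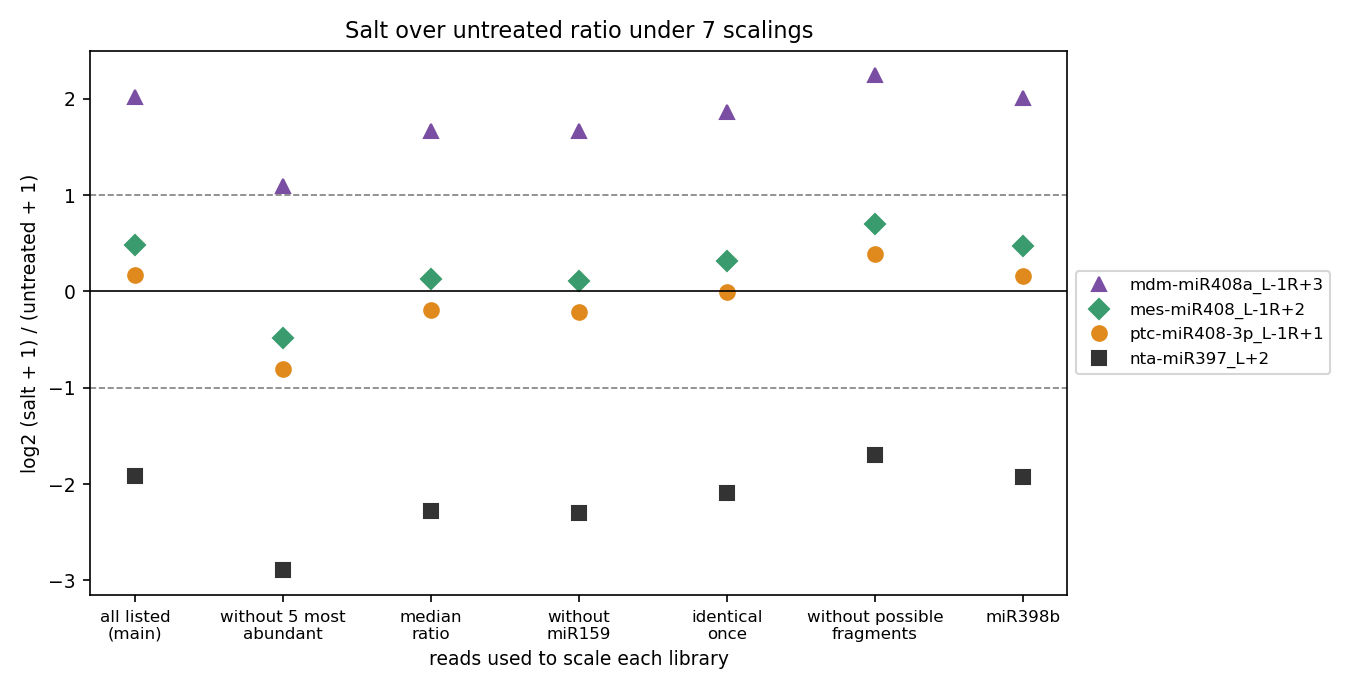
Log2 ratio of salt over untreated, on level + 1, for 4 entries under 7 scalings. The horizontal axis names the reads used for scaling, dashed lines mark 2-fold, and aly-miR408-3p is left out because it has the values of mes-miR408. nta-miR397 lies below the lower line and mdm-miR408a above the upper line throughout, while ptc-miR408-3p crosses 0.

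Among entries at the level minimum, those whose ratio lay nearest to that of nta-miR397 were mes-miR396c at -2.14, mdm-miR827 at -1.59 and PC-5p-34594_120 at -1.53. Nearest to ptc-miR408-3p, again at the level minimum, were ptc-miR167f-3p at 0.17, ptc-miR172d at 0.15 and gma-miR171c-3p_R+1_1ss21AG at 0.15. Likeness here is the difference of log2 ratios over 2 libraries, which many entries could share. ptc-miR1444a_R+1, singled out after its values were seen because miR1444 is known from poplar as another copper-responsive miRNA, was 1.08-fold higher (1.04 to 1.13), at 3621 RPM in the salt library and 3351 RPM in the untreated library.

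The degradome tied miR397 to laccases alone. All 15 sites of nta-miR397 carried a laccase symbol, with 6 symbols in all, namely IRX12, LAC2, LAC5, LAC10, LAC16 and LAC17. IRX12 is the laccase LAC4 of Arabidopsis, which acts with LAC17 in stem lignification. In Arabidopsis miR397 is known to act on LAC2, LAC4 and LAC17. No other listed miRNA had a site in these 6 symbols. A symbol was given at 887 of the 981 sites. None of these was on the list for plastocyanin-like proteins and superoxide dismutases (among others ARPN, PETE, UCC and CSD genes). Since the degradome came from mixed RNA, it says nothing of a difference between salt and untreated plants.

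LAC5 had the most reads at a single site, with 21 raw reads at position 764 and 21 at position 766 of its transcripts. LAC2 had 10 raw reads at each of 5 positions, 358, 561, 793, 805 and 1421. LAC16 had 10 reads at position 727 and 1 read at position 750. These sites carry most miR397 reads. LAC17 had 6 reads at position 758 and 4 reads each at positions 503 and 773. IRX12 had 5 reads at position 763, listed 2 times, and LAC10 had 5 reads at position 278. Transcript identifiers are not in the table, so it is not known which positions belong to 1 transcript.

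The raw reads of these sites cannot simply be added. The table also holds a signal headed TPB, which is not explained, and which was at most 52.7 units per raw read. Per read, LAC16 had this full value, each LAC5 site had 0.5 of it, each IRX12 and LAC10 site 0.333 of it and each LAC2 site 0.2 of it. These are the values that reads would have if divided evenly over 2 LAC5 sites, over 3 sites of IRX12 and LAC10, and over 5 LAC2 sites, which is how many such sites are listed. The LAC17 site at position 758 had 0.667 of the full value per read, and the other 2 LAC17 sites had 0.375. Dividing TPB by the full value gave 54 full-read equivalents for miR397, against a sum of 132 raw reads. On this scale LAC5 had 21, LAC16 had 11, LAC2 had 10, LAC17 had 7, IRX12 had 3.33 and LAC10 had 1.67. In raw reads LAC2 comes first, with a sum of 50, and by full-read equivalents LAC5 comes first. Over the table, sites of 1 entry with the same raw reads and TPB formed 355 groups. Of these, 265 had a whole-number divisor (within 1e-06), and in 157 the divisor equalled the number of sites listed, so this reading of TPB holds for part of the table only.

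**Figure D4:**
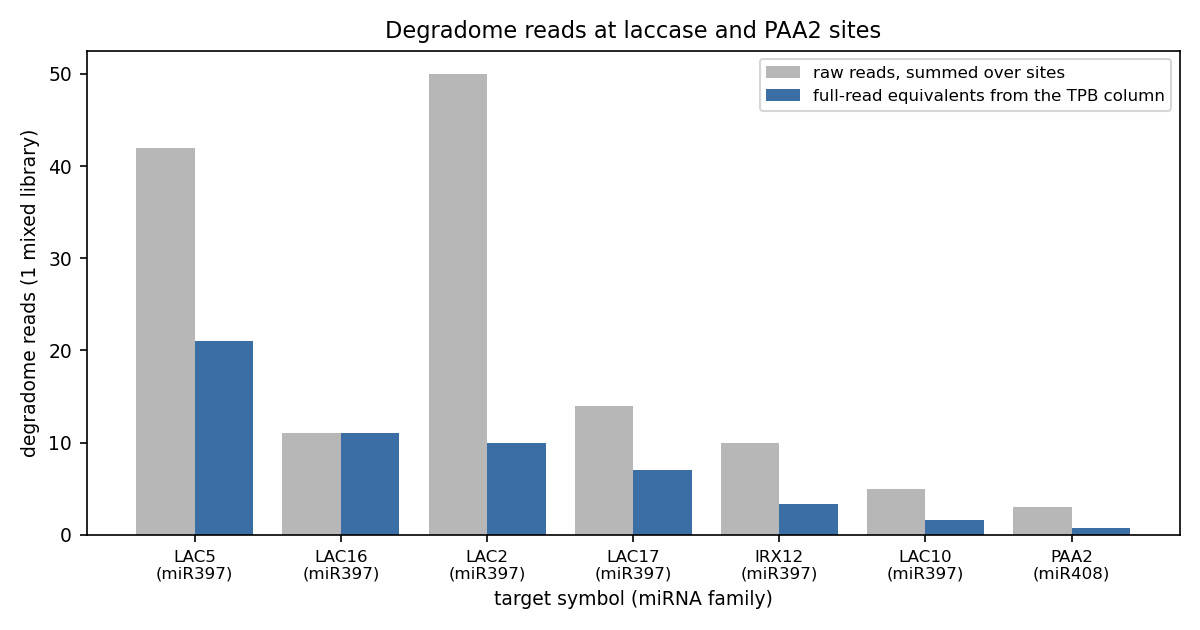
Degradome reads at the target symbols of miR397 and miR408. Grey bars are raw reads summed over sites and blue bars are full-read equivalents from the TPB column, with PAA2 counted once per position, in 1 library of mixed RNA. The order of LAC2 and LAC5 changes between the measures. PAA2 holds a sum of 3 raw reads or 0.75 full-read equivalents, which may be 1 read listed at 3 positions.

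miR408 had a single target symbol, PAA2, the copper-transporting ATPase that brings copper into the thylakoid for plastocyanin in Arabidopsis. Its 12 sites are 3 positions, 2253, 2761 and 3371, each listed for ptc-miR408-3p, mes-miR408, aly-miR408-3p and mdm-miR408a. Every one of them rests on 1 raw read, with 0.25 of the full TPB value, so the 3 positions sum to 0.75 full-read equivalents. On the reading of TPB given above, this is the value of 1 read divided over 4 sites, although 3 positions are listed. All miR408 sites may thus rest on the same single read. Of all 981 sites, 24.8% had 1 raw read. No laccase and no plantacyanin or uclacyanin symbol was listed for miR408, and hbr-miR408a and ptc-MIR408-p5 had no site. The smallest number of reads at any listed site is also 1.

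Alignment scores lay in the upper part of the scale in both families, and lower scores stand for better matches. Sites of miR397 scored 3 to 4, with the best score of 3 at IRX12, LAC10 and 1 LAC16 site, and sites of miR408 scored 3 to 4. Over all sites the median was 3.5, and 201 of 981 sites (20.5%) scored 2 or less, none of them among the members. The cleavage position was counted from the 3′ end of the aligned stretch, which lies opposite the 5′ end of the miRNA. Every listed site, of any miRNA, had it on base 9, 10 or 11, so a place near base 10 is no result about miR397. The position fell on base 10 at all 15 miR397 sites and at 863 of all 981 sites (88.0%). At all 12 miR408 sites, which are 3 positions, it fell on base 11, as at 56 of 981 sites (5.71%). The aligned stretch at each PAA2 site was 1 base longer than the miRNA, as it was at 54 of those 56 sites. The count runs over bases of that stretch and where the extra base lies is not given. Base 11 of the stretch thus need not lie opposite base 11 of the miRNA. The LAC17 stretches at positions 503 and 773 were also 1 base longer than the miRNA, with the cleavage position still on base 10.

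Among other copper-responsive miRNAs, ptc-miR1444a_R+1 had 15 sites, of which 11 carried no symbol and 4 carried SBT1.8, with 2 to 111 raw reads and scores from 1.5 to 4. miR398 had 3 sites, all in the laccase symbol LAC9 at position 21, listed for ptc-miR398b, ptc-miR398b_R+1 and nta-miR398_R+2. This position had 78 raw reads with the full TPB value, more than all miR397 sites together on that scale. The copper regulator symbol SPL7 occurred once, at position 1068 for ghr-miR156a_R+1, with 1 read and a score of 2.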

How the data were processed

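RNA was column-purified, treated with DNase and made into Illumina small RNA libraries, per the labels' protocols. Software for trimming, mapping and calling was not given in the sources used here. Deposited small RNA values are estimated counts of reads for each mature sequence (raw, per the file headers), and 68 of 205 entries, 4 of them members, hold parts of reads. Columns for 0 and 2 days were matched to samples through their titles. The degradome table holds raw counts of degradome reads, an alignment score and a signal headed TPB, all as deposited.

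Counts were divided by the listed total and multiplied by 1000000. Log2 ratios used level + 1. Intervals of shares are Clopper-Pearson and those of ratios are exact conditional intervals, after rounding estimated counts (SciPy 1.17.1). The hairpin was folded with RNAfold 2.7.2. Ratios were tested on simulated data first, and the result is not given here. That test cannot decide which scaling suits the real libraries, because simulated counts need not share their shifts in the most abundant entries. In the real libraries the ratios moved when those entries were left out of the total. Full-read equivalents are TPB divided by its largest value per raw read.

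Members, gene lists and alternatives were chosen with earlier results of these data known. All entries and sites of the 3 family numbers are named, besides the 3 entries nearest in ratio to each main form, miR398 by its counts and largest entry, and other entries on the miR408 hairpin. Alternatives were other scalings, pseudocounts of 0.1 and 5, level minimums of 0 and 50 RPM, thresholds of 1.5-fold and 4-fold, and stricter degradome filters.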

Additional observations from a re-analysis of the deposited data

How the results depend on the processing

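No paired analysis was possible because each condition had 1 library. The log2 ratio of the miR397 sum (-1.92) was -2.89 when the total left out the 5 most abundant entries, -2.28 with the median ratio, -2.30 without miR159, -2.09 with identical sequences counted once and -1.70 when possible rRNA or tRNA fragments were left out. Under the same 5 scalings the miR408 sum (0.19) was -0.79, -0.17, -0.19, 0.0187 and 0.41. Counting identical sequences once leaves reads out of the total where they were divided over names. The miR408 sum moved by less than its counting interval with the other pseudocounts, with the 3p arm alone, with the shared sequence once and, chosen after seeing the data, with PC-5p-83176_32 added or with scaling to ptc-miR398b. Of all entries at the minimum, 37 were higher and 15 lower. These counts were 23 and 41 without the 5 most abundant entries, and 24 were lower without miR159. With no level minimum 34 were lower, with a minimum of 50 RPM 9 were lower and with 1.5-fold 25 were lower. At 4-fold 20 were higher and 6 lower. Of the 27 member sites in the degradome, 14 had at least 2 reads and 17 were left with 1 per symbol and position. With 1 per symbol, raw reads and TPB, chosen after seeing the data, 9 sites were left, 8 of them in laccases. With an alignment score of at most 2 the sites, symbols and laccase sites all came to 0. The causes were not tested. Depth limits the salt library, where 1 read was worth 1.36 RPM.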
